A study of Mus musculus with 9 samples.

Results

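The genes described here are 10 regulators of messenger RNA decay, chosen by name from 3 protein families: the ZFP36 family (Zfp36, Zfp36l1 and Zfp36l2), the BTG/TOB family (Btg1, Btg2, Tob1 and Tob2), and the Regnase and Roquin proteins (Zc3h12a, Zc3h12c and Rc3h1). Each matched 1 row of a table with 45535 rows that carry a gene symbol, and all 10 passed the filter on low values. The table holds normalized RNA-seq read counts for dendritic cells that carry the integrin CD103, pulled from lung on magnetic beads. All samples came from C57/BL6j mice given bleomycin for 7 days, a treatment that scars the lung, and the lungs were dissociated with collagenase. The 5 samples before culture were taken straight after isolation, and the 4 samples after culture were kept for 18 h in culture (RPMI, fetal serum, antibiotics). No untreated lung and no other time point is used here. Whether a sample is 1 mouse or a pool is not stated, so the p-values measure the spread between these samples only.

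Most messenger RNAs are removed by shortening of their poly(A) tail, followed by removal of the cap and digestion from either end. ZFP36 proteins bind AU-rich elements in 3′ untranslated regions (UTRs) and recruit the CCR4-NOT deadenylase complex, and BTG and TOB proteins link the same deadenylases to poly(A)-binding proteins. Regnase-1, encoded by Zc3h12a, is an endonuclease that cuts stem-loops in the 3′ UTRs of inflammatory transcripts, and Roquin-1, encoded by Rc3h1, binds similar stem-loops. In dendritic cells and macrophages these proteins limit how long cytokine transcripts last, and several of their own genes are induced early after a stimulus.

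The ZFP36 proteins bind the nonamer TTATTTATT (written as DNA), and this motif was looked for in the longest 3′ UTR of each gene, on the transcript's strand, because ZFP36 transcripts are themselves known targets of these proteins. Of the 10 regulators, 4 held it, each at 1 place. The sites are shown with 10 bases on each side and the nonamer in capitals, 5′ to 3′, from the GRCm38 genome with the GENCODE M21 annotation.
Zfp36 (chr7:28376961-28376969, minus strand): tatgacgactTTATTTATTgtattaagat
Zfp36l1 (chr12:80108177-80108185, minus strand): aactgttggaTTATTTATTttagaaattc
Zfp36l2 (chr17:84184924-84184932, minus strand): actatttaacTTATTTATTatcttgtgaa
Rc3h1 (chr1:160970053-160970061, plus strand): actttactcaTTATTTATTgagatgagga
All 3 genes of the ZFP36 family and Rc3h1 carry the nonamer, whereas no BTG/TOB gene and neither Regnase gene did. This contrast holds for the nonamer only. Its inner heptamer, the nonamer without its first and last base, occurred in Btg2 and Tob2 at 1 place each and in Zc3h12c at 2. It occurred at 3 places in each ZFP36 family gene and at 2 in Rc3h1, and no background share is given for it. Among 13639 tested genes with an annotated 3′ UTR, 7.95% held at least 1 nonamer. A match is a description of the letters and not a measured binding site.

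Promoters were read from RefSeq (GRCm38.p6), as 250 bases before to 50 bases after the transcription start, and 9 of the 10 regulators matched an entry. The motifs searched, on both strands, were the cyclic AMP response element TGACGTCA, the AP-1 element TGANTCA, the CArG box bound by serum response factor, and the kappa B element bound by NF-kappa B. The upstream part of the Btg2 promoter is shown in full because Btg2 had the steepest fall of the 10, and it held the response element (capitals), whose first base lies 166 bases before the start.
Btg2 (chr1:134079156-134079405, minus strand): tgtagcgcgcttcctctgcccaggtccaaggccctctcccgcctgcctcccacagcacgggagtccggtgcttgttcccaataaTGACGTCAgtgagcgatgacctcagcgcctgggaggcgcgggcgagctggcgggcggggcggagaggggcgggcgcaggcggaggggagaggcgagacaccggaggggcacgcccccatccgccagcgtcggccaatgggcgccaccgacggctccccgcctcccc
The other matches are shown with 10 bases on each side, to set a gene that fell (Zfp36, CArG box) beside genes that did not pass the test (Zfp36l1 and Rc3h1, AP-1).
Zfp36: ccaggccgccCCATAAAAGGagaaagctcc
Zfp36l1: accgcatggcTGATTCAacctcagtgt
Rc3h1: ttggggccggTGACTCAgagctttcct
Of 32851 promoters of 300 bases, 1.79% held the response element, 7.81% the AP-1 element, 1.63% the CArG box and 4.51% the kappa B element, which none of the 9 matched regulators held. No binding data were used here, and a window without a match says nothing about the factor.

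Depth in rows with a symbol ran from 14.7 to 35.3 M reads per sample, and the lowest count of any regulator was 629 reads (Tob1, after culture replicate 1). The labelled cell type was checked against its markers: Itgae, which encodes CD103, had a mean of 18138 normalized counts before culture and 1727 after, and the cDC1 (type 1 conventional dendritic cell) markers Xcr1 and Clec9a had means of 5836 and 2756 before and 114 and 315 after. Markers of other lung cells were also present. Summed normalized counts of 8 endothelial markers ran from 24367 to 34834 before and from 3264 to 4304 after culture, and those of 8 epithelial markers ran from 26338 to 45333 before and from 4498 to 8887 after. Napsa (7835 ± 548), Sftpc (7801 ± 5185) and Cdh1 (6244 ± 685, mean ± SD, n = 5) were the highest of the epithelial markers before culture. Whether the Napsa and Cdh1 counts come from epithelial cells was not tested. All 8 endothelial, 8 epithelial and 7 fibroblast markers fell, as did 7 of the 8 tested neutrophil markers and 9 of the 10 cDC1 markers. The neutrophil marker Mmp8 and the cDC1 gene Batf3 rose. Ly6g was at 0 in every sample after culture, but its mean over all samples was below the filter, so no fall was tested. The conventional dendritic cell markers were split: Ccr7, a migration receptor gene, rose 6.69-fold, Flt3 1.60-fold and Zbtb46 1.21-fold, and Itgax, H2-Ab1 and Cd74 fell. All 6 NK cell markers fell, as did 5 of 7 for cDC2, 4 of 7 for alveolar macrophages, 5 of 9 for monocytes and interstitial macrophages and 3 of 5 tested for plasmacytoid dendritic cells, where 1 cDC2 and 1 alveolar macrophage marker rose. Of the T cell markers 1 rose, 3 fell and 4 did not pass the test, and of the B cell markers 1 rose, 2 fell and 3 did not pass. Beside these counts, 34.6% of all tested genes fell and 34.2% rose. In bulk RNA, fewer cells of a type and less RNA per cell cannot be told apart, and the part of these markers in the results below was not tested. Before culture replicate 4 stood slightly apart from its group. Its correlations to the other samples of the group were 0.980 to 0.984, against 0.984 to 0.989 among those others. Pairs of samples after culture correlated at 0.979 to 0.987, so the lowest of them was below those of replicate 4. Values without before culture replicate 4 are given where they matter.

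Of the 10 regulators, 6 fell after culture (Zfp36, Zfp36l2, Btg2, Tob1, Tob2 and Zc3h12a), 1 rose (Zc3h12c) and 3 did not pass the test (Zfp36l1, Btg1 and Rc3h1), at an adjusted p of 0.05 in limma with Benjamini-Hochberg adjustment over all 18202 genes tested. Culture moved many genes: 34.6% of all tested genes fell, 34.2% rose and 68.8% passed in either direction, so the 7 of 10 regulators that passed is near the background share. By size, 6 of the 10 fell by at least 2-fold, compared with 18.6% of all tested genes, and 5 of the 10 by at least 4-fold, compared with 8.19%. Of these 5, Zfp36l2 fell by less than 4-fold in at least 1 alternative (log2 fold change −1.66). The 1 that rose did so by at least 2-fold, as did 14.1% of all tested genes. The median log2 fold change was −1.98 over the 10 regulators and 0.0065 over all tested genes. The regulators were chosen with earlier results of these data known, so these shares and medians are a description. In 7 of the 10 the samples before and after culture did not overlap, compared with 57.3% of all tested genes. Each of the 3 families held a member that fell and another that did not pass the test.

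**Figure D1:**
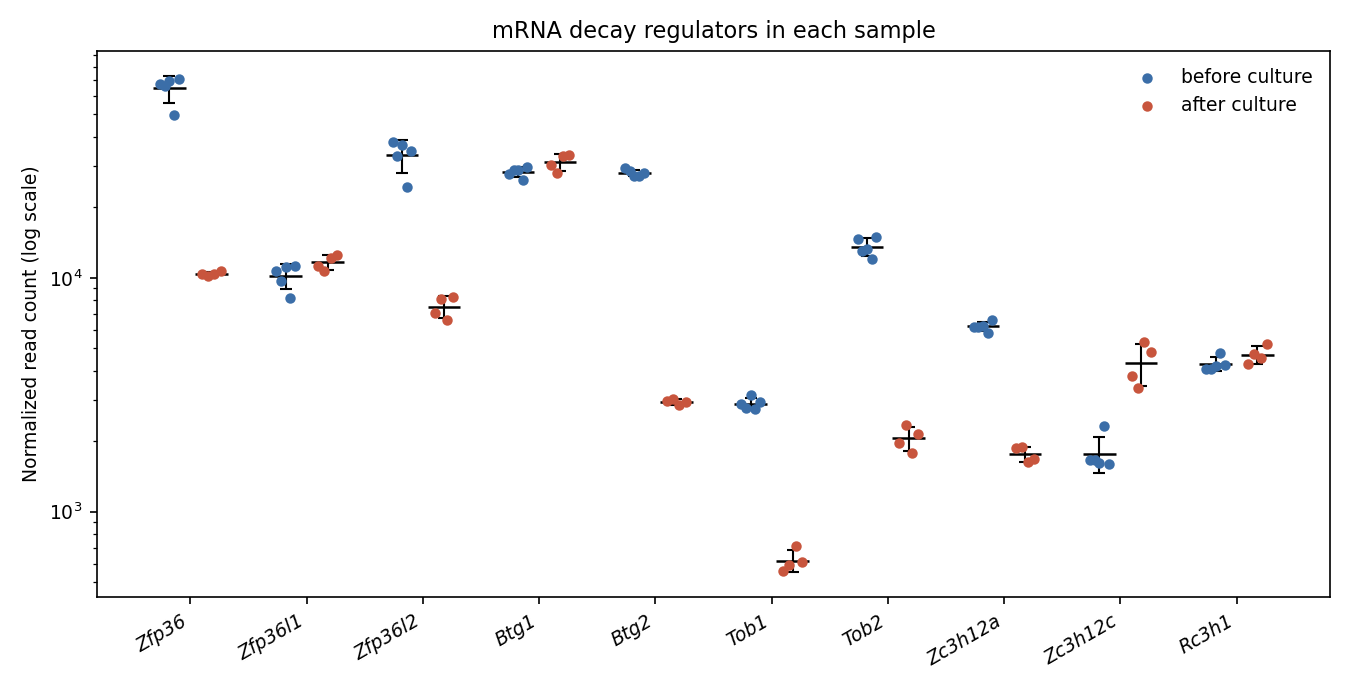
Normalized read counts (log scale) of each of the 10 regulators in the 5 samples before and the 4 samples after culture, 1 point per sample with the group mean as a bar. Btg2 is between 27239 and 29324 before and between 2843 and 3036 after culture, whereas the points of Zfp36l1, Btg1 and Rc3h1 overlap between the groups.

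Zfp36 encodes tristetraprolin, the founding member of the ZFP36 family. It lies on chromosome 7 (chr7:28376784-28380253, minus strand). Its normalized counts were 67053, 66114, 69396, 49515 and 70789 in the 5 samples before culture and 10353, 10216, 10404 and 10665 in the 4 samples after. All 4 cultured samples lie within a narrow band far below the lowest uncultured sample, which is replicate 4. The mean fell 6.20-fold, from 64573 ± 8619 (SD, n = 5) to 10410 ± 188 (SD, n = 4) (log2 fold change −2.62, SE 0.105, limma adjusted p = 1.42e-10). Without before culture replicate 4 the log2 fold change was −2.71.

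Zfp36l2, which encodes another AU-rich element binding protein of the family (chr17:84183931-84187947, minus strand), had 38030, 33042, 36988, 24552 and 34890 normalized counts before and 7077, 8075, 6593 and 8302 after culture. The groups were again far apart. The fall was 4.46-fold, from 33500.3 ± 5360 (SD, n = 5) to 7512 ± 811 (SD, n = 4) (log2 fold change −2.15, SE 0.124, limma adjusted p = 4.73e-09).

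Zfp36l1, the third paralog (chr12:80107754-80113013, minus strand), had 10696, 9678, 11123, 8220 and 11218 normalized counts before and 11198, 10710, 12120 and 12550 after culture. Here the groups overlapped, and the highest uncultured sample lay above both of the lower cultured samples. The log2 fold change of 0.20 (SE 0.0979) did not pass the test (limma adjusted p = 0.0855). Zfp36l1 passed as higher under upper quartile scaling (adjusted p = 0.0459), quantile normalization (0.0284) and removal of each sample's GC content and length trend (0.0184), with adjusted p from 0.0184 to 0.206 over all alternatives. The ratio of Zfp36 to Zfp36l1 separated the groups: its log2 value averaged 2.66 before and −0.16 after culture, a difference of −2.82 (exact permutation p = 0.0159, two-sided, the smallest that 5 against 4 samples can give). The same p was found for all 8 ratios computed between paralogs, and Benjamini-Hochberg adjustment over the 8 leaves it at 0.0159. All 8 pairs, those given below included, were chosen with the values known. The p-values of the ratios therefore add no support to the genes' own results.

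Btg2, an antiproliferative gene that is induced by p53 and by growth stimuli, lies at chr1:134075170-134079120 on the minus strand and had the largest fall of the 10. Its normalized counts were 29324, 28535, 27239, 27302 and 28126 before and 2972, 3036, 2843 and 2941 after culture. The spread within each group was small beside the gap between them. The mean fell 9.53-fold, from 28105 ± 875 (SD, n = 5) to 2948 ± 80.1 (SD, n = 4) (log2 fold change −3.25, SE 0.0636, limma adjusted p = 5.92e-13). The promoter printed above, with its response element, belongs to this gene.

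Btg1, the closest paralog of Btg2 and a gene known for high levels in resting lymphocytes, lies at chr10:96617006-96622809 on the plus strand. It had 27746, 28823, 29001, 26271 and 29707 normalized counts before and 30341, 28031, 33142 and 33483 after culture. Cultured replicate 2 lay within the range of the uncultured samples. The log2 fold change of 0.14 (SE 0.0841) did not pass (limma adjusted p = 0.154), and its sign turned to −0.05 when the GC content and length trend was removed. Btg2 and Btg1 were nearly level in normalized counts before culture, with a mean log2 ratio of −0.01, and after culture that ratio was −3.40, a change of −3.39 (exact permutation p = 0.0159, two-sided, 5 against 4 samples).

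The TOB genes encode larger relatives of the BTG proteins that bind both the CAF1 deadenylase and poly(A)-binding protein. Tob1 (chr11:94211454-94215495, plus strand) had between 2741 and 3140 normalized counts before and between 556 and 710 after culture. Tob2 (chr15:81848272-81858796, minus strand) had 14590, 12977, 13302, 11987 and 14905 before and 1972, 2337, 1786 and 2151 after culture. Both genes had no overlap between the groups. Tob1 fell 4.69-fold (log2 fold change −2.23, SE 0.0820, limma adjusted p = 6.28e-11) and Tob2 fell 6.57-fold (−2.72, SE 0.0917, limma adjusted p = 3.00e-11). The log2 ratio of Tob1 to Tob2 rose by 0.49, from −2.22 to −1.74 (exact permutation p = 0.0159, two-sided, 5 against 4 samples). Tob2 thus fell more steeply in the reported values. Over the alternatives other than leaving out a sample, Tob1 ran from −2.35 to −2.19 and Tob2 from −2.74 to −2.28. These ranges overlap.

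Zc3h12a encodes Regnase-1 (chr4:125118423-125127840, minus strand). Its normalized counts were 6170, 6151, 6202, 5801 and 6621 before and 1862, 1893, 1629 and 1686 after culture. The groups did not overlap, and the mean fell 3.50-fold, from 6189 ± 291 (SD, n = 5) to 1767.5 ± 130 (SD, n = 4) (log2 fold change −1.81, SE 0.0709, limma adjusted p = 1.13e-10).

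Zc3h12c encodes Regnase-3, a paralog with the same type of nuclease domain (chr9:52111344-52168572, minus strand), and was the 1 regulator that rose. It had 1657, 1662, 1608, 2325 and 1604 normalized counts before and 3817, 3368, 5326 and 4797 after culture. Replicate 4 was the highest uncultured sample and still lay below every cultured one. The mean rose 2.44-fold, from 1771 ± 311 (SD, n = 5) to 4327 ± 894 (SD, n = 4) (log2 fold change 1.28, SE 0.141, limma adjusted p = 2.74e-06), and without before culture replicate 4 the log2 fold change was 1.38. Zc3h12a and Zc3h12c moved in opposite directions, and the log2 ratio of the first to the second went from 1.82 to −1.27, a change of −3.09 (exact permutation p = 0.0159, two-sided, 5 against 4 samples).

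Rc3h1, which encodes Roquin-1 (chr1:160906418-160974978, plus strand), had between 4061 and 4780 normalized counts before and between 4284 and 5230 after culture. The highest uncultured sample was replicate 4. The log2 fold change of 0.13 (SE 0.0775) did not pass (limma adjusted p = 0.138). It passed as 0.18 without before culture replicate 4 (adjusted p = 0.0413) and as 0.17 with sample weights (adjusted p = 0.0396), over a range of adjusted p from 0.0396 to 0.520 in all alternatives.

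**Figure D2:**
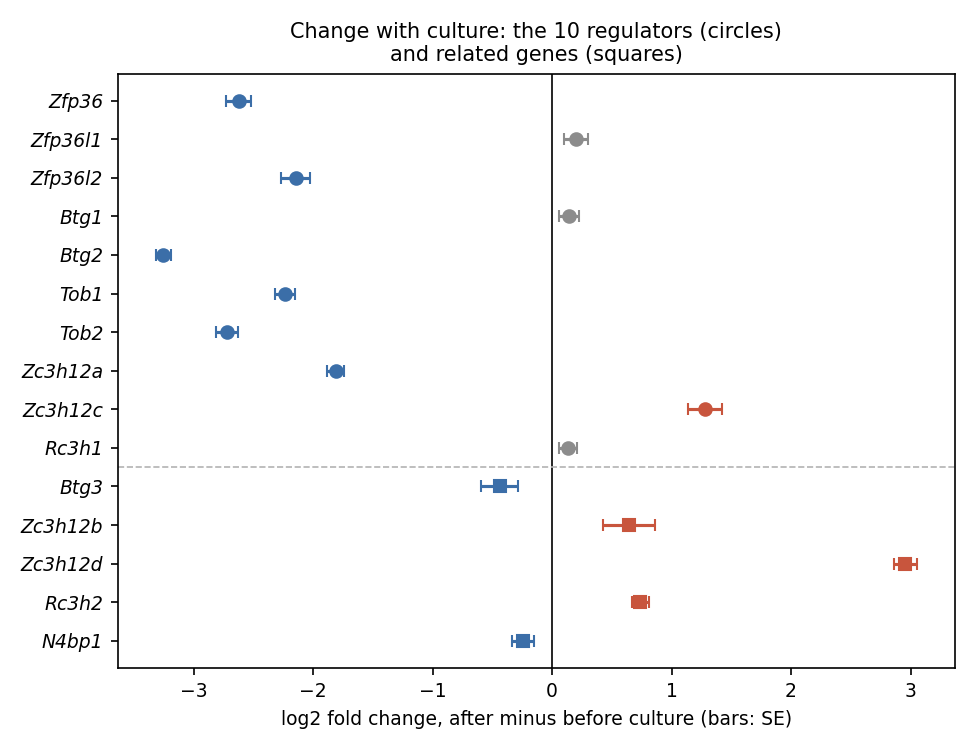
Log2 fold change after against before culture of the 10 regulators and of related genes (squares), with the standard error from limma as bars. Btg2 is lowest at −3.25, Zc3h12c stands at 1.28, and Zc3h12d is highest at 2.96.

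The related genes outside the 10 were mixed: of 7, 5 could be tested, and 3 rose and 2 fell. Zc3h12d, which encodes Regnase-4, rose 7.74-fold, from 530.0 ± 65.3 (SD, n = 5) to 4102 ± 231 (SD, n = 4) normalized counts, with no overlap (log2 fold change 2.96, limma adjusted p = 1.80e-11). Rc3h2, which encodes Roquin-2, rose from a mean of 2375 to 3961 (0.74, limma adjusted p = 6.02e-07). Both rose, while Zc3h12a fell. The other 3 passed with overlapping groups: Zc3h12b rose (0.64, limma adjusted p = 0.0183), Btg3 fell (−0.44, limma adjusted p = 0.0221) and N4bp1, which encodes an RNase of the same superfamily, fell (−0.24, limma adjusted p = 0.0291, turning to 0.09 with the GC content and length trend removed). These 3 calls were lost in some alternatives, among them a block on the title numbers. Zfp36l3 and Btg4 were below the filter. For Btg3, 13.5% of its 50-base windows also occur in another gene, so its counts are less certain.

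Levels between genes were compared per length, as TPM (reads per base of exon, scaled to the same total in every sample) from the recovered reads and the merged exon length of each gene. Before culture Zfp36 was the highest of the 10 at 2525 ± 204 TPM (SD, n = 5), followed by Btg2 (1399) and Zfp36l2 (1286), whose ranges overlapped. Then came Btg1 (732), Zfp36l1 (463), Zc3h12a (293) and Tob2 (277), the last pair overlapping, and Tob1 (173), Rc3h1 (51.8) and Zc3h12c (35.7), again with the last pair overlapping. After culture Btg1 was highest at 893 ± 113 TPM (SD, n = 4), then Zfp36l1 (587), Zfp36 (451), Zfp36l2 (319) and Btg2 (162). Below them were Zc3h12c (95.7) and Zc3h12a (92.1), which overlapped, Rc3h1 (62.3), and Tob2 (46.3) and Tob1 (40.7), which overlapped. Some places in this order depend on the length used. Zfp36's annotated transcripts merge into a single block of 3470 bases, whereas its RefSeq gene spans 2445 bases, and with that length Zfp36 was at 640 TPM after culture, above Zfp36l1 at 587. Both lengths run along the genome without a gap, so neither leaves out an intron. A shorter length would place Zfp36 higher. With the longest transcript of each gene as its length, Tob2 (345 TPM) was above Zc3h12a (238) before culture and Tob2 (57.8) above Rc3h1 (49.8) after.

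The make-up of each family differed between the groups. The summed ZFP36 family level was 4274 ± 354 TPM before (SD, n = 5) and 1357 ± 89.9 TPM after culture (SD, n = 4), 3.15-fold lower. Zfp36 went from 59.1% to 33.3% of that sum and Zfp36l1 from 10.8% to 43.1%, and which of the pair was larger after culture depends on the length: with the RefSeq span for Zfp36 their shares after culture were 41.4% and 37.9%, and with the longest transcripts 38.3% and 39.9%. Before culture Zfp36 held the larger share with every length used. In the BTG/TOB family, which was 2.26-fold lower in sum, Btg2 went from 54.2% to 14.2% and Btg1 from 28.4% to 78.1%. With the longest transcripts the share of Btg2 went from 50.2% to 13.3%. Among Zc3h12a, Zc3h12c and Rc3h1 the share of Zc3h12a went from 77.1% to 37.2% and that of Zc3h12c from 9.30% to 37.8%. Summed over the 10 regulators the level was 2.63-fold lower after culture, 7235 against 2748 TPM. Shares are a description and were given no test.

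**Figure D3:**
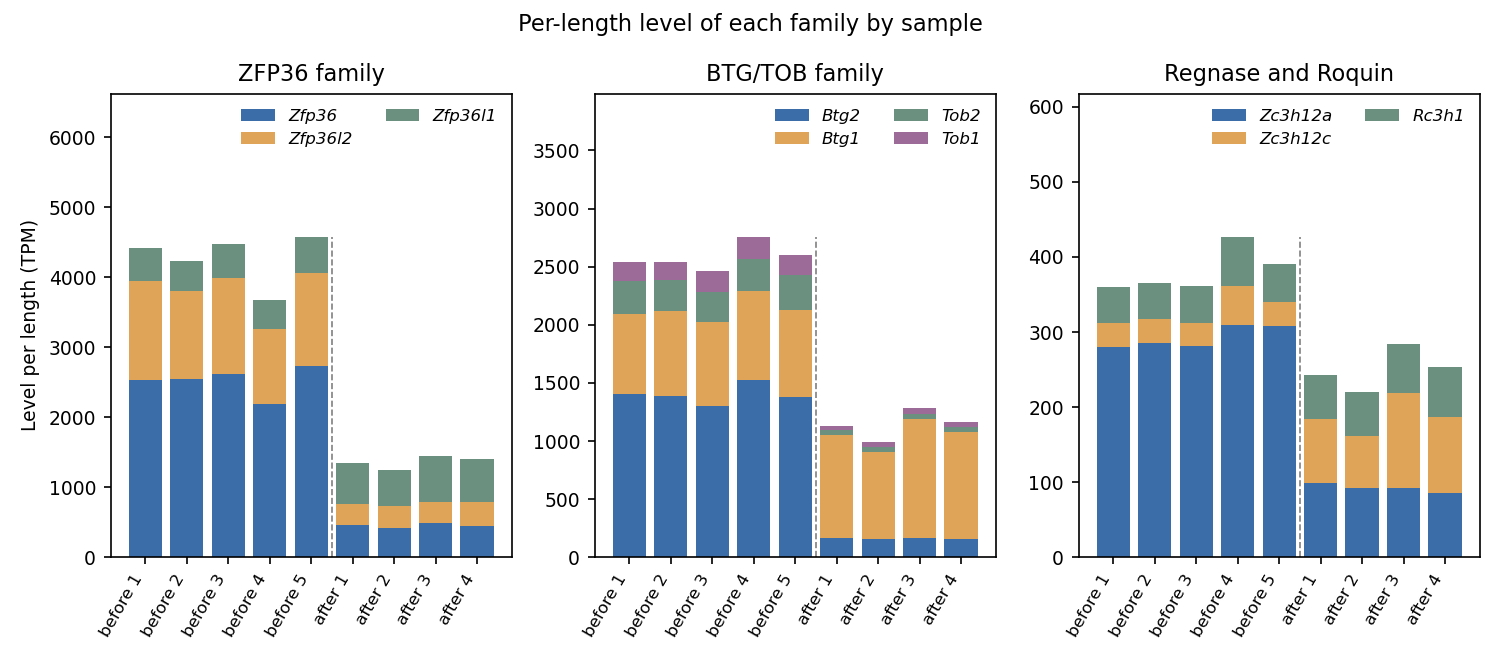
Stacked per-length levels (TPM) of the regulators of each family in each of the 9 samples. Zfp36 and Btg2 take most of the columns before culture, and Btg1 holds most of its columns after culture. Levels use merged exon lengths, on which the order of Zfp36 and Zfp36l1 after culture depends.

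The genes whose pattern over the 9 samples was most like each regulator were taken from 11775 tested genes, by the root mean square difference of log2 profiles centred on their mean. For Btg2 the nearest was Ccnd1, which encodes cyclin D1 (0.0765), followed by Srgap3 and Timeless. For Zfp36 the nearest named genes were H2ac15, a histone gene with near-identical copies and so uncertain, Trp53i11 and Klf2 (0.124). Nearest to Tob1 was Ppp1r15a (0.0732), a gene of the integrated stress response, and nearest to Tob2 was Lmnb1, which encodes lamin B1 (0.0757). Zc3h12a was nearest to Dot1l, a histone methyltransferase gene (0.0688), Zc3h12c to Rps6ka5 (0.0889), Zfp36l2 to Napsa (0.115), Zfp36l1 to Zfp467 (0.0778), Btg1 to Fip1l1 (0.0554) and Rc3h1 to Adss2 (0.0232). Likeness here includes the step between the groups and is not a measure of shared control.

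Over 100 tested genes of the decay machinery, its partners and other regulators, 38 rose, 29 fell and 33 did not pass. These counts are near the background of 34.2% higher, 34.6% lower and 31.2% not past the threshold. The median log2 fold change was 0.017, and 3 rose and 3 fell by at least 2-fold. In the CCR4-NOT complex 7 of 11 genes rose and 1 fell: the catalytic subunit gene Cnot6 rose 1.91-fold (limma adjusted p = 4.04e-07) and Cnot2 1.35-fold, while Cnot10 fell 1.36-fold. With the GC content and length trend removed 2 fell. Of 7 genes listed by name as other deadenylases, 1 rose and 4 fell (2 fell with the GC content and length trend removed). Whether each product has that activity was not tested. Noct fell 2.45-fold (limma adjusted p = 9.90e-07). For Noct, 34.5% of its windows are shared with another gene.

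Of 20 genes of decapping and 5′ to 3′ decay 10 rose and 4 fell, with Dcp1a, a decapping activator gene, up 1.58-fold and Xrn1, the 5′ to 3′ exonuclease gene, up 1.52-fold. Lsm4, Lsm6 and Lsm2, which encode subunits of the LSM ring, fell, Lsm4 by 2.81-fold. In the exosome and SKI list 6 of 13 tested genes rose (among them Mtrex, the exosome's helicase gene, 1.37-fold) and 1 fell (Exosc5). With edgeR, DESeq2 and 5 other alternatives 2 of them fell, and without after culture replicate 2 it was 3. Of 10 nonsense-mediated decay genes 3 rose, Smg1, Upf2 and Smg8, and 2 fell, Smg9 among them. With the GC content and length trend removed the counts were 5 and 0 and Smg9 changed sign, and with edgeR, DESeq2, TMM or quantile normalization 4 fell. Of 7 genes for poly(A)-binding proteins and partners, which BTG and TOB proteins contact, 1 rose (Paip1, 1.77-fold) and 3 fell, and 2 rose with the GC content and length trend removed.

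Other proteins that bind AU-rich or UTR elements gave 3 rises and 6 falls among 12 genes. Arid5a, which encodes a protein that protects Regnase-1 targets from decay, fell 4.25-fold, from 7419 to 1744 normalized counts (log2 fold change −2.10, limma adjusted p = 3.17e-10), and so fell together with Zc3h12a. Tia1, a translational silencer gene, rose 2.12-fold. Among 15 kinases, proteases and partners 4 rose and 6 fell, and 7 rose once the GC content and length trend was removed. Tank, whose product works with Regnase-1 to limit NF-kappa B signalling, rose 2.65-fold (limma adjusted p = 2.10e-08), and Mapk14, the gene of the p38 kinase whose pathway phosphorylates ZFP36, fell 1.54-fold (limma adjusted p = 1.04e-04).

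Most transcripts listed as bound by ZFP36 were lower after culture. Of 20 such genes 17 fell, against 34.6% of all tested genes, with a median log2 fold change of −1.50, and 3 did not pass (Il12b, Csf2 and Ccl2). In limma 0 rose, also at an unadjusted p of 0.05 and with edgeR and DESeq2, and 1 rose in some alternatives, among them the fit without before culture replicate 4. Fos fell 49.2-fold (limma adjusted p = 9.87e-12), Dusp1, a phosphatase gene, 10.2-fold and Plk3 7.66-fold. The list was chosen with earlier results of these data known. Of all tested genes whose 3′ UTR lacks the nonamer, 38.6% fell. Of those with 1, 2 and at least 3 nonamers, 32.7%, 26.8% and 28.7% fell. Of 17 tested transcripts cut by Regnase-1 or bound by Roquin, 11 fell and 2 rose, with a median of −0.86, and 4 rose without before culture replicate 4 or without after culture replicate 2. The lists are not separate: 7 genes (Il6, Il12b, Il1b, Ptgs2, Ier3, Tnf and Cxcl1) are on both, and 6 of these fell. Of the 10 tested genes on the Regnase and Roquin list alone, 5 fell and 2 rose. Nfkbiz fell 10.8-fold and Nfkbid 6.80-fold (limma adjusted p = 1.20e-12 and 4.34e-12), both genes of nuclear I-kappa-B proteins. Tnfrsf9 rose 7.44-fold and Tnfrsf4 1.62-fold (limma adjusted p = 1.75e-11 and 6.00e-05), both genes of T cell costimulatory receptors.

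Immediate early genes and genes known to rise during tissue dissociation were lower after culture too. Of 20, 19 fell, against 34.6% of all tested genes, with a median log2 fold change of −3.25, and Klf6 alone did not pass. Fosb fell 322-fold, from 88532.5 to 275 normalized counts, and Nr4a1 fell 93.1-fold (limma adjusted p = 4.07e-14 and 2.79e-13). This list too was chosen with earlier results of these data known. It shares Fos and Dusp1 with the ZFP36 list, and the part of dissociation in the regulators' falls was not tested.

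**Figure D4:**
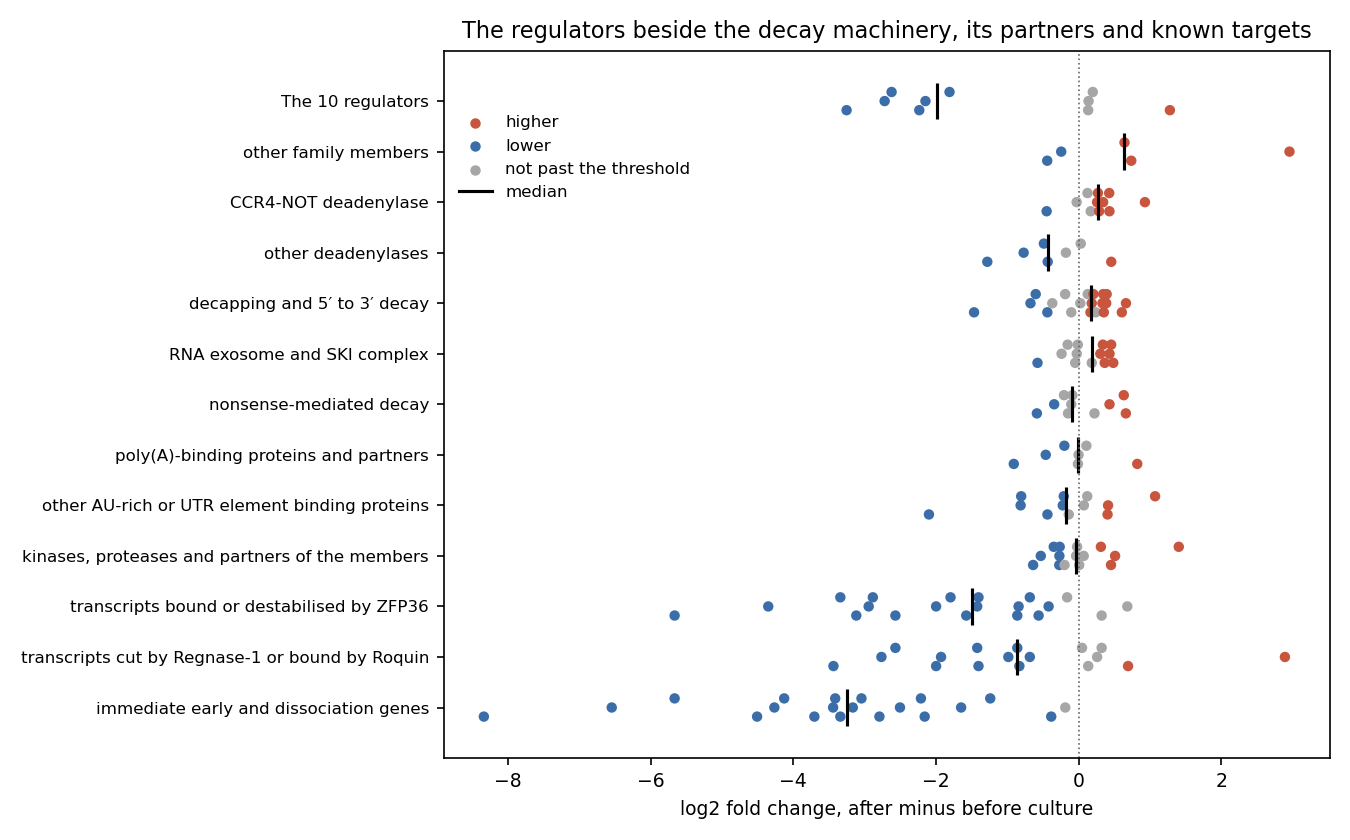
Log2 fold change of each tested gene in the regulators and in the related lists, coloured by its call, with the median of each list as a bar. The medians of the machinery lists lie between −0.43 (other deadenylases) and 0.27 (CCR4-NOT), and the medians of the ZFP36 targets and the immediate early genes stand at −1.50 and −3.25.

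Some counts may include reads of neighbours, because the strand used in counting is not given in the sources used here. Zfp36 overlaps the antisense gene Gm44710, which had between 17.9 and 32.6 normalized counts. Zfp36l1 overlaps Gm26669 on the opposite strand over 1672 exonic bases, Tob2 overlaps Gm49476 over 289 and Zfp36l2 overlaps AC132455.1 over 105. These 3 symbols matched no row used here, so no level is given for them. Zc3h12c overlaps the microRNA gene Mir6244 over 117 bases, which was at 0 in every sample. A further 3.26% of Zfp36l1 windows, 2.63% of Btg1 windows and 2.23% of Zfp36 windows occur in other genes.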

How the data were processed

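RNA was purified on columns from 9 samples of CD103+ lung dendritic cells, per the labels' protocols, and samples were grouped by their treatment label. The deposited values are the authors' normalized gene counts, a signal never below 0, in 49317 rows. The submitters' processing notes name DESeq2 and GRCm38, and the aligner, counter, annotation and strand are not given in the sources used here. All values (100%) were whole multiples of 1 read within 0.01 reads, so whole reads were recovered. The 3782 rows without a symbol (3.87 to 10.9% of reads) were left out. Genes with a mean of at least 10 were tested by limma 3.58.1 (R 4.3.3, mean-variance trend, two-sided) after taking log2(value + 1), with Benjamini-Hochberg adjustment. Single ratios were compared by exact permutation over 126 splits. Per-length levels and 3′ UTRs used GENCODE M21, and promoters used RefSeq.

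Named are the 10 regulators and 7 related genes, and in each other list the 3 genes with the smallest adjusted p and up to 3 past the threshold against the list's median, 11 marker genes fixed by name, and the 3 genes nearest in profile to each regulator. Batf3, Mmp8, Ccr7, Flt3, Zbtb46, Itgax, H2-Ab1, Cd74, Cdh1, Il6, Il1b, Ptgs2, Ier3, Tnf, Cxcl1, Ly6g, Klf6, Il12b, Csf2 and Ccl2 were named after their values were seen. The regulators and lists were chosen with earlier results of these data known. Alternatives were other pseudocounts (0.5, 8), filters (none, minimum mean 50), scalings, sample weights, edgeR 4.0.16, DESeq2 1.42.0, replicate blocks, GC content and length trends, and leaving out each sample. Fits were tested on simulated data. Other tools were Python 3.11.15, NumPy 2.4.6, pandas 2.3.3 and matplotlib 3.10.9.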

Additional observations from a re-analysis of the deposited data

Results flagged for a closer look

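Among 190 groups of samples checked for a value far from the rest, 16 held one by Dixon's test. Chance flags about 1 in 20 independent groups, but these groups are not independent. They include genes picked because their profile over the same samples was like a regulator's. The number flagged is therefore a description and cannot be set against chance. Of the 16 flagged groups, 12 lie in before culture replicate 4. Among the regulators, Zfp36 was 49515 normalized counts there, against 66114 to 70789 in the other 4 samples of the group. Zc3h12c was 2325 there, against 1604 to 1662, and Rc3h1 was 4780, against 4061 to 4240.

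The same sample was low for Lsm4 (366 normalized counts), Lsm2 (333), Smg9 (969) and Hnrnpab (3177). It was high for Tank (1773), Trp53inp1 (2154), Adss2 (1683), Efr3a (4343) and the epithelial marker Sftpc (16826, against at most 7467 in the others). Outside it, Cd79a, a B cell marker, was 1239 in before culture replicate 2. After culture, Sftpc was 3606 in replicate 3, and Zfp467 and Slc15a4 were 375 and 1757 in replicate 2. After culture replicate 3 and before culture replicate 4, both high for Sftpc, carry the same library number. Whether those samples are paired was not tested.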

How the results depend on the processing

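The 6 regulators that fell and Zc3h12c kept direction and call in all 22 alternatives. The sizes of the falls varied. The smallest log2 falls were −1.28 for Zc3h12a, −1.66 for Zfp36l2, −2.22 for Zfp36 and −2.28 for Tob2. The reported values were −1.81, −2.15, −2.62 and −2.72. Btg2 (−3.11) and Tob1 (−2.18) moved less. Zfp36l2 thus fell by less than 4-fold in at least 1 alternative. The number of regulators called higher was 1 in the reported fit and 2 under upper quartile scaling, quantile normalization, sample weights and removal of the GC content and length trend, and ran from 1 to 2 when each sample was left out. The added gene was Zfp36l1 under the scalings and the trend removal, and Rc3h1 with sample weights and without before culture replicate 4. Removing that trend moved the median of all tested genes to 0.128 and their counts to 6937 higher and 5013 lower, against 6225 and 6299 in the reported fit. It also turned the sign of Btg1 (−0.0459), N4bp1 (0.0906), Smg9 (0.0613), Cd3e (−0.0299), Fip1l1 (−0.0904), Efr3a (−0.0793) and Cd79a (0.294). Cd79a was 0.0809 with the library numbers as a replicate block, which leaves out the unmatched before culture replicate 2, and ran from −0.169 to 0.0809 when each sample was left out. The cause was not tested.

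Deviations of same-numbered samples correlated at 0.0807, 0.0796, −0.213 and −0.0403 by title number, with mixed signs. By library number they correlated at 0.0807, 0.247, 0.349 and 0.0447. Each cultured sample then correlated most with the uncultured sample of its own library number. The margin was small for after culture replicates 1 (0.0807 against 0.0664) and 4 (0.0447 against 0.0223). Whether the samples are paired is not stated in the labels and was not tested. The reported fit and the permutations treat them as unpaired. With a replicate block, 5761 genes were higher and 5885 lower by title numbers, and 6390 and 6446 by library numbers, and the regulators' counts stayed at 6 lower and 1 higher in both.

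After seeing the data, 2 other gene lengths were tried for the per-length shares. After culture Zfp36 held 33.3% of the ZFP36 family in the reported values, 38.3% with the longest transcripts and 41.4% with its RefSeq span, and Zfp36l1 held 43.1%, 39.9% and 37.9%. The longest transcripts left the shares of Btg1 and Zc3h12a within their spread.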

Other observations

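The nonamer that ZFP36 proteins bind was counted in the longest 3′ UTR of each tested gene. Of 12555 genes without it, 38.6% fell and 32.7% rose after culture. Of 844 genes with 1 nonamer, 32.7% fell and 39.2% rose, and of 153 genes with 2, 26.8% fell and 50.3% rose. Of 87 genes with at least 3, 28.7% fell and 40.2% rose, so the shares did not move steadily with the number. Their UTRs were longer, with a median of 2225.5 bases for 1 nonamer against 1072 bases for none. This count was made after values were seen, has no test, and the part of UTR length in it was not tested.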
